A study of Mus musculus with 10 samples.

Results

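The mitochondrial ribosomal proteins were followed through their genes in epididymal white fat, a visceral fat pad of the male mouse. Members were the genes whose symbol starts with Mrpl or Mrps and continues with a number, and 76 of the 18193 genes tested on the array met this rule. The rule used names only and no measured value. The 10 mice were male C57BL/6J, 8 weeks old at the start, and were kept for 8 weeks on CRF-1 normal chow (5 mice) or on a high-fat diet with 60% fat (5 mice). RNA of each mouse went on its own Affymetrix array, so n = 5 in each group and p-values measure the spread between mice.

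Mitochondria carry their own ribosomes, which translate the few proteins encoded in mitochondrial DNA, all of them core subunits of the respiratory chain and the ATP synthase. All proteins of these ribosomes are encoded in the nucleus, made in the cytosol and imported. A large subunit forms peptide bonds, a small subunit reads the messenger RNA, and each joins proteins with bacterial counterparts to proteins found only in mitochondria. White adipocytes use mitochondria for fatty acid handling and for the acetyl groups and glycerol of stored fat.

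The deposited intensities differ between arrays in overall level, with medians from 17.9 to 27.4, and the direction of the calls below depends on how that is treated. Each result is therefore given after quantile normalization, which gives all arrays the same distribution of values, and as deposited. Levels are log2 intensities. A change is the high-fat mean minus the chow mean on that scale, with its standard error (SE) from limma, and a gene is called where the Benjamini-Hochberg adjusted p over all 18193 genes is below 0.05. The adipocyte markers were bright in every array: the mean log2 level of the 8 markers named on the array, Adipoq and Fabp4 among them, ran from 10.01 to 11.99 on chow and from 11.24 to 11.79 on the high-fat diet, and limma called 0 of 8 (0 of 8 at an unadjusted p under 0.05). The lowest chow levels, 11.23 and 10.01, were those of arrays 1 and 2. Without these arrays the median change of the markers was -0.35 after quantile normalization. Limma then called 3 of 8 lower, and 1 of 8 as deposited, where 19.8% and 10.6% of all genes were lower. In a whole tissue, fewer cells of a type and less RNA per cell cannot be told apart.

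Changes in the mitochondrial ribosomal protein genes were small, and they went in both directions after quantile normalization. Of the 76 genes 15 were called higher on the high-fat diet, 6 were called lower and 55 were not called. Of all genes 12.9% were called higher and 13.1% lower. Among the 8162 genes within the level range of the members the shares were 17.2% higher and 17.5% lower, so the members' 19.7% higher lay near that background and their 7.89% lower lay under it. The median change of the members was 0.051, with quartiles of -0.16 and 0.25, against a median of -0.037 and quartiles of -0.53 and 0.46 over all genes. The members' range ran from -0.65 to 0.87, and 0 of 76 changed by 1 or more on the log2 scale, whereas 25.2% of all genes and 16.2% of genes within the members' level range did so.

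In the values as deposited the calls among these genes were all in one direction. There limma called 22 of 76 higher and 0 lower (30 and 0 at an unadjusted p under 0.05), where 15.1% of all genes were higher and 8.20% lower. Of genes within the members' level range 23.3% were higher and 6.29% lower, beside 28.9% of the members higher. The median change of the members was 0.33, against 0.078 over all genes and 0.21 over genes within the members' level range. The 15 genes called higher after quantile normalization were all among the 22, and the 6 called lower were all not called, with changes between -0.37 and -0.07. The 7 others called higher only as deposited were Mrpl27, Mrps28, Mrpl10, Mrpl12, Mrpl17, Mrpl3 and Mrpl45. No member was called in opposite directions by the 2 treatments, and 58 of 76 kept the sign of their change. Of all calls on the array 49.6% were higher after quantile normalization and 64.8% as deposited, and among the members the shares were 71.4% and 100%.

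**Figure D1:**
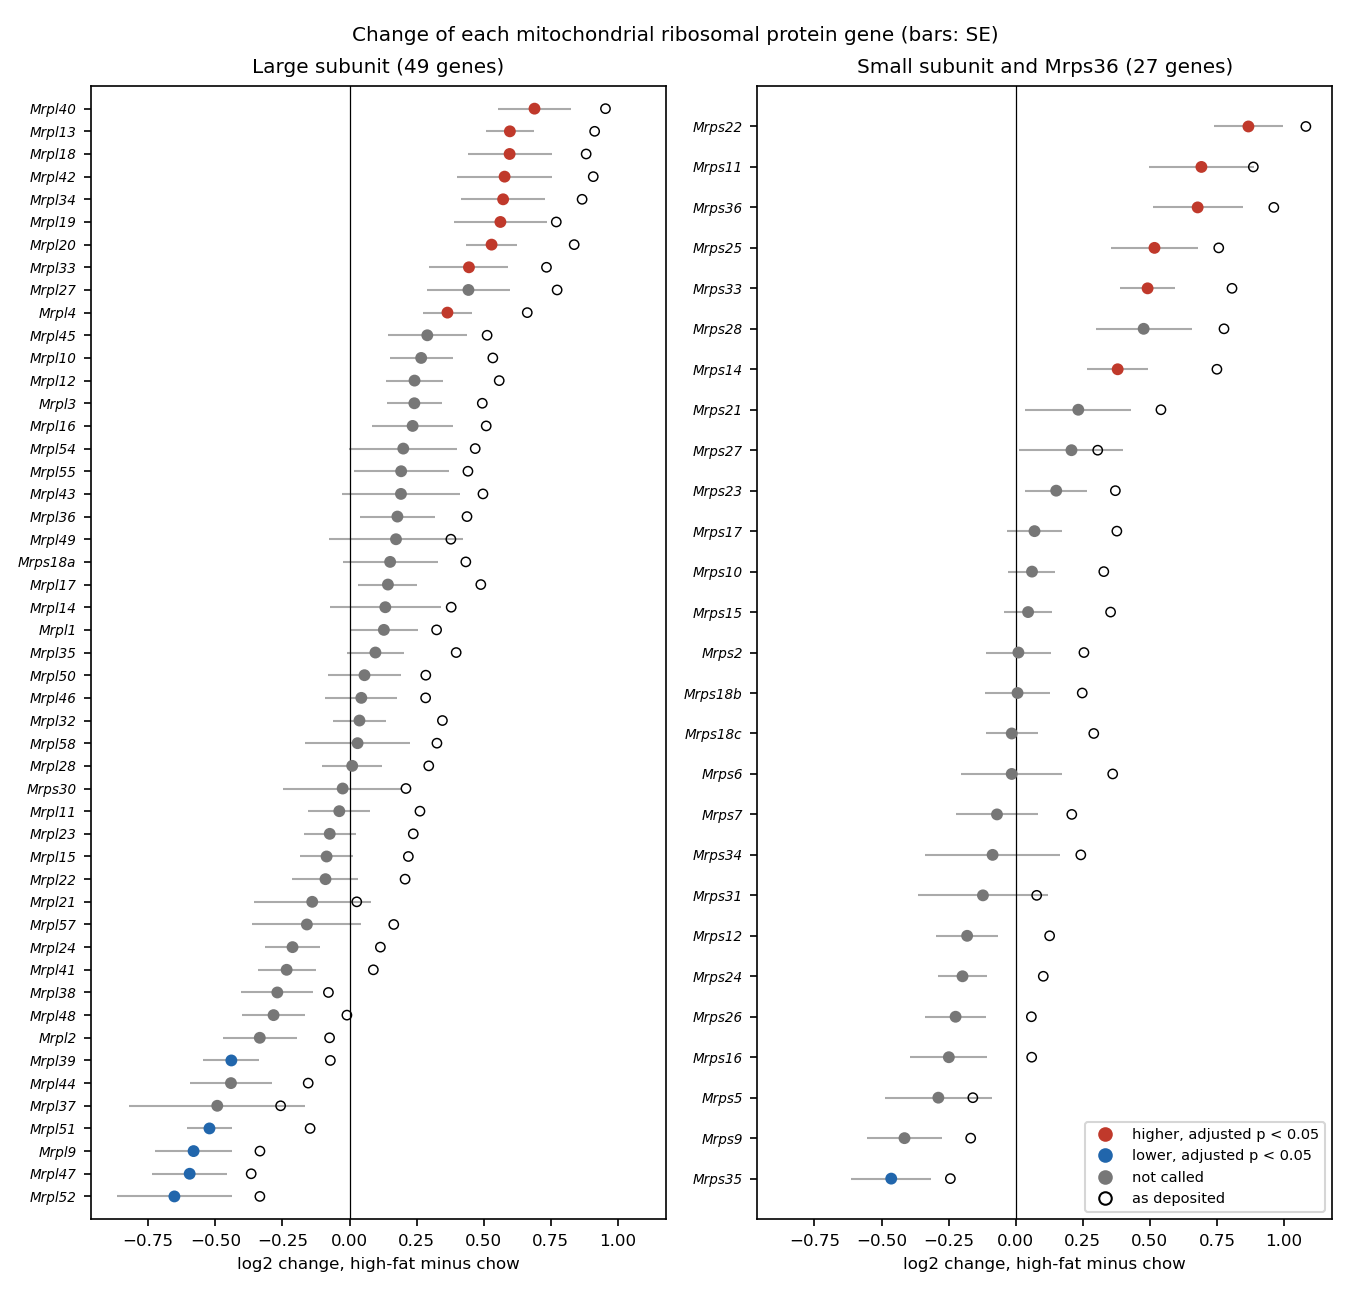
Change of each of the 76 genes on the log2 scale (x axis, high-fat minus chow) in the large subunit (left) and the small subunit with Mrps36 (right). Filled points are quantile normalized values with SE bars, red where called higher and blue where called lower, and open circles are the values as deposited. The open circles lie to the right of the filled points, so that 15 genes are higher under both treatments while the 6 blue points move toward 0.

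Centring the arrays on the members' own mean removes any shift that all members share, and leaves how they changed relative to each other. On that scale, an alternative chosen after seeing the data, 15 members were higher and 12 lower than the members' mean, where 9.62% and 20.5% of all genes were called higher and lower. Of genes within the members' level range 14.2% were higher and 22.8% lower, beside 19.7% and 15.8% of the members. The centring itself holds the members' mean change fixed, and it moved the median over all genes to -0.27. How these shares compare is therefore largely set by the centring and is no test of the members. All 6 genes that were lower after quantile normalization were lower here too, and 13 of the 15 higher ones were higher, all but Mrpl19 and Mrpl33. Mrpl27 and Mrps28 were added on the higher side, and Mrpl2, Mrpl38, Mrpl44, Mrpl48, Mrps26 and Mrps9 on the lower side. A factor that scales a whole array cancels here, so the members changed unequally under any such scaling.

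Promoters show the regulatory sequence beside which the values below stand. They are given for the 2 members with the largest called rise and the 2 with the largest called fall among those in the RefSeq promoter table of build GRCm38.p6. Each runs 5′ to 3′ on the strand of the gene, from 250 bases before the annotated start to 50 after, and capitals mark a motif that a search of both strands found. The motifs searched were CCGGAAG (the ETS type to which GABPA binds), GCGCATGC (NRF1), AAGATGGC (YY1), CACGTG (the E-box, which MYC can bind), CCAAT and TATAAA.
Mrps22, chr9:98601630-98601929, minus strand: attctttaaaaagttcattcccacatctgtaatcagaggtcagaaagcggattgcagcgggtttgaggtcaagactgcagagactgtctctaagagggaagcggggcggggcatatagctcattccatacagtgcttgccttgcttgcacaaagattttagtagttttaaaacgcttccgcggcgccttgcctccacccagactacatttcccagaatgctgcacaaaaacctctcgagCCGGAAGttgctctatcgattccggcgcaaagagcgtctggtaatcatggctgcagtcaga
Mrps11, chr7:78782881-78783180, plus strand: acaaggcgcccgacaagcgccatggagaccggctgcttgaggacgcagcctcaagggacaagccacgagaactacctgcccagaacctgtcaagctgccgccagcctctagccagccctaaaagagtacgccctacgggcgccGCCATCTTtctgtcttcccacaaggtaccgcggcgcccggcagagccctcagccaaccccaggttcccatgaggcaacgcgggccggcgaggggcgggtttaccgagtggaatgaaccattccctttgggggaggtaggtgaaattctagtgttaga
Mrpl52, chr14:54426659-54426958, plus strand: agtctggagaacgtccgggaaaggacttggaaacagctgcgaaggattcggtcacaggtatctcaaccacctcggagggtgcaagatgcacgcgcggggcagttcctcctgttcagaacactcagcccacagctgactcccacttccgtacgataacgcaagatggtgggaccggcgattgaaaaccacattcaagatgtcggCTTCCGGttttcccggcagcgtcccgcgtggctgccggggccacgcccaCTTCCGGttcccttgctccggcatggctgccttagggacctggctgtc
Mrpl47, chr3:32736706-32737005, minus strand: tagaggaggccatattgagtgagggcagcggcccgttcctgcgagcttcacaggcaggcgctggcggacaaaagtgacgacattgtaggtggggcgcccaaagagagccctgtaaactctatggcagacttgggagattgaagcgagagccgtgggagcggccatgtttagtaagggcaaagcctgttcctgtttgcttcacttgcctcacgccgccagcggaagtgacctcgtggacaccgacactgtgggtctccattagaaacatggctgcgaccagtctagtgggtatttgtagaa

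Mrps22 held 1 match to CCGGAAG, Mrpl52 held 2 on the opposite strand, Mrps11 held 1 match to AAGATGGC on the opposite strand, and Mrpl47 held none of the motifs. In the whole group 67 of 76 genes had an entry, with 73 windows of 300 bases. CCGGAAG stood in 34.2% of these windows, against 8.86% of all 32851 windows in the table. The share was 16.4% against 2.75% for AAGATGGC, 11.0% against 2.71% for GCGCATGC, 9.59% against 7.15% for CACGTG, and 39.7% against 37.4% for CCAAT. Of the 6 motifs TATAAA alone stood in a smaller share of the members' windows than of all, 6.85% against 13.6%. This holds for windows only, since some genes have more than 1. Counted by gene, the E-box also stood in a smaller share of the members, 7.46% against 8.09% of all genes. The same was true of CCAAT, with 38.8% against 41.1%. CCGGAAG was found in 5 of the 12 matched genes called higher and in 2 of the 5 called lower. A match is a description of the letters, matches of different motifs may overlap, and none of this was tested against the changes.

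The windows of 23 of the 67 matched members (34.3%) overlapped that of a gene on the opposite strand, against 11.9% of the 27025 genes in the table. Mrps11 and Mrpl46 are such a pair of members, and their changes were 0.69 and 0.04. Mrpl43 shares its start region with Twnk, which encodes the mitochondrial DNA helicase: Mrpl43 differed by 0.19 (adjusted p = 0.575) and Twnk fell by 0.88 (adjusted p = 0.00028). Mrpl57 stands opposite Ska3, a kinetochore gene that rose by 3.39 (adjusted p = 0.00998), and itself differed by -0.16 (adjusted p = 0.616). Mrpl40 rose by 0.69 opposite Hira, which differed by 0.40 (adjusted p = 0.115). These pairs were named after their values were seen.

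In the small subunit 5 of 26 genes were called higher and 1 lower after quantile normalization, with a median change of 0.0083, and 6 and 0 as deposited, with a median of 0.30. That was 19.2% higher and 3.85% lower, beside 12.9% and 13.1% of all genes and 17.2% and 17.5% within the members' level range. As deposited 23.1% were higher, beside 15.1% of all genes and 23.3% within that range. Of its 16 genes with bacterial counterparts 2 were higher and 0 lower, and of its 10 mitochondria-specific genes 3 were higher and 1 lower. Mrps22, which encodes a mitochondria-specific protein of this subunit, showed the largest rise of all members. Its level on chow arrays 1 to 5 was 7.28, 7.44, 6.84, 7.10 and 7.22, and on high-fat arrays 1 to 5 it was 7.96, 8.01, 8.17, 7.95 and 8.12. Every high-fat array lay above every chow array, and the means were 7.18 ± 0.23 and 8.04 ± 0.10 (SD, n = 5 each). The change was 0.87, a 1.82-fold rise (SE 0.13, limma adjusted p = 0.00073; 2-sided exact permutation p = 0.00794, the smallest that 252 arrangements allow), and 1.08 as deposited.

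Mrps11 encodes the counterpart of a bacterial protein on the platform of the small subunit. It stood at 7.53, 7.33, 6.64, 6.84 and 6.56 on chow and at 7.68, 7.72, 7.60, 7.85 and 7.51 on the high-fat diet. Chow arrays 1 and 2 lay close to the high-fat arrays, and chow 1 lay above the lowest of them, so the groups overlapped. The rise was 0.69 (SE 0.19, limma adjusted p = 0.0237; 2-sided exact permutation p = 0.0159), and a dim second probe set differed by -1.22 (adjusted p = 0.0953). Averaged over both probe sets Mrps11 changed by -0.26 and was not called.

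Mrps33 and Mrps25, both without bacterial counterparts, and Mrps14, a counterpart of a bacterial protein near the decoding site, completed the rises of the small subunit. Mrps33 stood at 9.37, 9.59, 9.14, 9.30 and 9.15 on chow and at 9.75, 9.76, 9.79, 9.84 and 9.84 on the high-fat diet. Its groups did not overlap, and it rose by 0.49 (SE 0.10, limma adjusted p = 0.0054). Mrps25 was at 8.19, 7.60, 7.28, 7.48 and 7.51 on chow and at 8.25, 8.25, 8.10, 7.99 and 8.04 on the high-fat diet. Only its chow array 1 reached the high-fat range, the rise was 0.52 (SE 0.16, limma adjusted p = 0.0380), and its 2 dimmer probe sets rose by 0.985 and 1.20. Mrps14 rose by 0.38 (SE 0.11, limma adjusted p = 0.0308), from levels between 9.97 and 10.55 to levels between 10.61 and 10.71, and a second probe set rose by 0.72. Mrps28, another bacterial-type member, differed by 0.48 (adjusted p = 0.0731) and was called as deposited (0.78, adjusted p = 0.0249).

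Mrps36 was assigned to the small subunit when it was named and is now counted as a component of the 2-oxoglutarate dehydrogenase complex of the citric acid cycle. It was at 8.49, 8.66, 7.78, 8.10 and 7.95 on chow and at 8.91, 8.71, 8.94, 8.81 and 8.99 on the high-fat diet. The highest chow array, chow 2, lay just under the lowest high-fat array. The rise was 0.68 (SE 0.17, limma adjusted p = 0.0129), and 0.96 as deposited.

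In the large subunit 9 of 49 genes were called higher and 5 lower after quantile normalization, with a median change of 0.096, and 15 and 0 as deposited, with a median of 0.35. That was 18.4% higher and 10.2% lower, beside 12.9% and 13.1% of all genes and 17.2% and 17.5% within the members' level range. As deposited 30.6% were higher, beside 15.1% of all genes and 23.3% within that range. The 29 genes with bacterial counterparts held 7 of the rises and 2 of the falls, and the 20 mitochondria-specific genes 2 and 3. Their median changes were 0.14 and 0.0021, and whether the 2 classes differ was not tested. Mrps30 and Mrps18a are counted here, since both proteins lie in the large subunit in spite of their names. Mrpl13 encodes a counterpart of a bacterial large subunit protein. Its levels were 9.50, 9.35, 9.18, 9.42 and 9.46 on chow and 10.05, 9.89, 9.99, 10.02 and 9.95 on the high-fat diet. Both groups were tight and clearly apart, and the rise was 0.60 (SE 0.089, limma adjusted p = 0.00078; 2-sided exact permutation p = 0.00794). Its other probe sets differed by 0.41, 0.29 and -1.27 without a call, the last of them dim. Averaged over all its probe sets Mrpl13 differed by 0.0062 and was not called.

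Mrpl40, a mitochondria-specific member, rose most in the large subunit. It was measured at 8.44, 7.78, 7.72, 8.09 and 8.13 on chow and at 8.68, 8.76, 8.77, 8.67 and 8.72 on the high-fat diet. The high-fat arrays lay close together and above the whole chow group, and the rise was 0.69 (SE 0.14, limma adjusted p = 0.0042). Mrpl20, whose bacterial counterpart acts early in assembly of the large subunit, stood at 9.04, 8.92, 8.93, 9.10 and 9.13 on chow and at 9.72, 9.63, 9.51, 9.52 and 9.39 on the high-fat diet. It rose by 0.53 (SE 0.095, limma adjusted p = 0.0024) with no overlap. Mrpl4, whose bacterial counterpart lines the tunnel through which the new protein leaves, rose by 0.36 (SE 0.090, limma adjusted p = 0.0131), from levels between 8.63 and 8.88 to levels between 8.99 and 9.21.

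For Mrpl18, Mrpl34 and Mrpl42 the rise came with chow arrays 1 and 2 close to the high-fat level. Mrpl18 was at 8.69, 8.44, 7.99, 8.04 and 7.89 on chow and at 8.87, 8.73, 8.82, 8.68 and 8.93 on the high-fat diet, a rise of 0.60 (SE 0.16, limma adjusted p = 0.0172). Mrpl34 was at 8.83, 8.81, 8.14, 8.18 and 8.18 on chow and at 8.99, 8.98, 8.95, 8.99 and 9.08 on the high-fat diet, a rise of 0.57 (SE 0.16, limma adjusted p = 0.0215). Mrpl42 ran from 9.04 to 10.03 on chow, highest on array 2 and next on array 1, and from 10.08 to 10.25 on the high-fat diet, a rise of 0.58 (SE 0.18, limma adjusted p = 0.0347). In Mrpl34 and Mrpl42 the groups still did not overlap, while chow array 1 of Mrpl18 passed the lowest high-fat array. Mrpl18 and Mrpl34 have bacterial counterparts and Mrpl42 has none. Mrpl19 (0.56, limma adjusted p = 0.0339) and Mrpl33 (0.44, limma adjusted p = 0.0465), both with bacterial counterparts, rose with overlapping groups and the widest high-fat spread among the genes called higher, with SDs of 0.27 and 0.25.

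**Figure D2:**
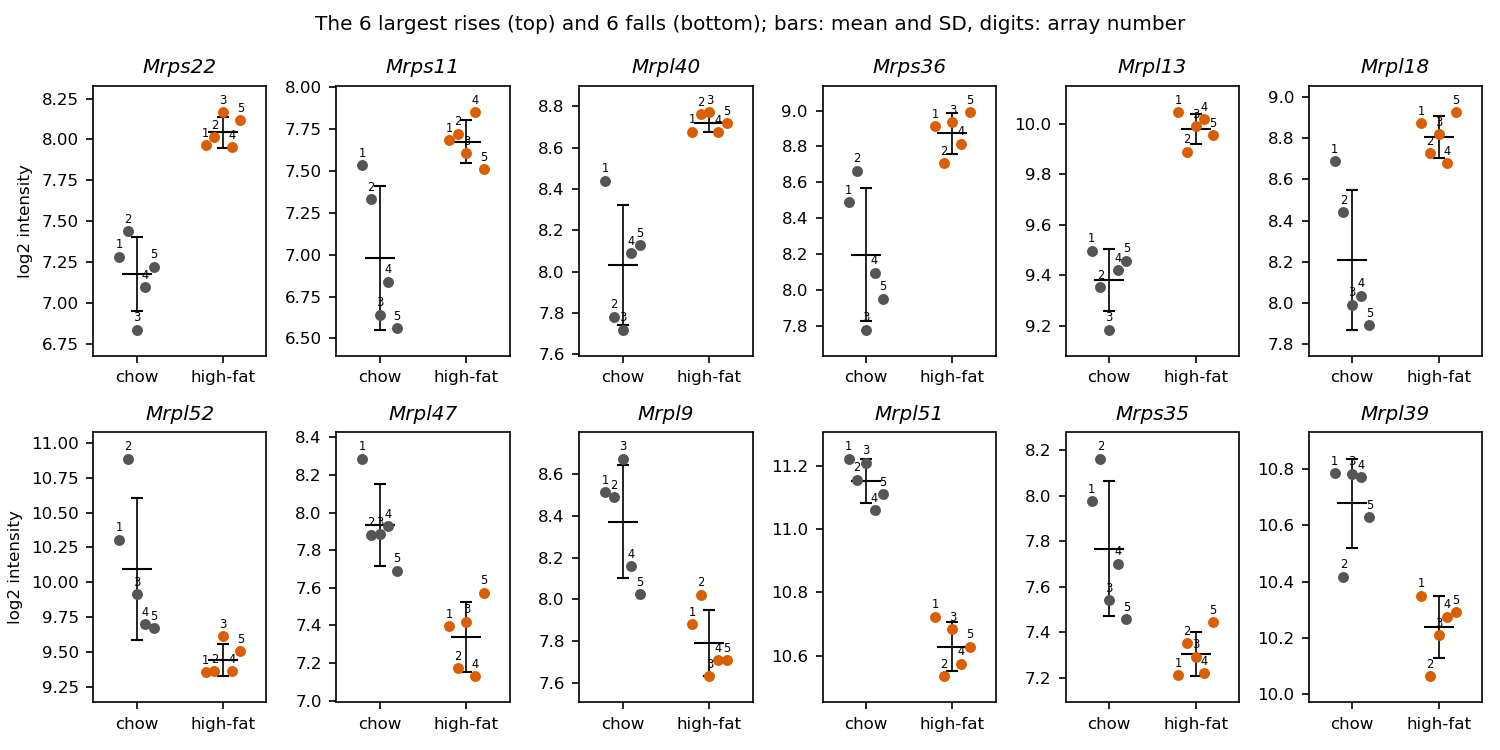
Log2 intensity after quantile normalization (y axis) of the 6 members with the largest called rise (top) and the 6 called lower (bottom), by diet. Points are arrays with their number, and bars are the mean and SD of 5 arrays. In Mrps22, Mrpl40, Mrps36 and Mrpl13 the groups are apart, in Mrps11 and Mrpl18 chow arrays 1 and 2 approach the high-fat arrays, and in Mrpl52 and Mrps35 the same arrays lie farthest from them.

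The 6 genes called lower encode 5 proteins of the large subunit and 1 of the small subunit, and none of them was called in the values as deposited. Mrpl51, a mitochondria-specific large subunit gene, had the smallest spread of any member on chow. It stood at 11.22, 11.16, 11.21, 11.06 and 11.11 on chow and at 10.72, 10.53, 10.68, 10.57 and 10.63 on the high-fat diet. After quantile normalization the groups were far apart against that spread, and the gene fell by 0.52 (SE 0.084, limma adjusted p = 0.0012; 2-sided exact permutation p = 0.00794). As deposited it differed by -0.15 (adjusted p = 0.542), and 2 dimmer probe sets differed by 0.14 and -1.69 without a call.

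Mrpl52, mitochondria-specific, showed the largest fall. It was at 10.31, 10.89, 9.91, 9.70 and 9.67 on chow and at 9.36, 9.37, 9.61, 9.37 and 9.51 on the high-fat diet. Chow arrays 1 and 2 were the highest, chow 4 and 5 lay just above the high-fat arrays, and the fall was 0.65 (SE 0.21, limma adjusted p = 0.0441) with no overlap. Its other 3 probe sets differed by -0.40, -0.49 and -0.16, none of them called, and the change as deposited was -0.33 (adjusted p = 0.369). Mrpl47, whose bacterial counterpart sits at the exit of the peptide tunnel, was at 8.29, 7.88, 7.88, 7.93 and 7.69 on chow and at 7.40, 7.17, 7.42, 7.13 and 7.57 on the high-fat diet. It fell by 0.60 (SE 0.14, limma adjusted p = 0.0099), against -0.37 as deposited (adjusted p = 0.242). The other 2 probe sets of Mrpl47 were dim and differed by 0.20 and 0.40 without a call.

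Mrpl9, which has a bacterial counterpart, was at 8.51, 8.49, 8.67, 8.16 and 8.02 on chow and at 7.88, 8.02, 7.63, 7.71 and 7.71 on the high-fat diet. High-fat array 2 nearly met chow array 5, the fall was 0.58 (SE 0.14, limma adjusted p = 0.0134), and a second probe set differed by -0.59 (adjusted p = 0.0657). Mrpl39, a mitochondria-specific protein, was at 10.79, 10.42, 10.78, 10.77 and 10.63 on chow and at 10.35, 10.06, 10.21, 10.27 and 10.29 on the high-fat diet. It fell by 0.44 (SE 0.10, limma adjusted p = 0.0103), while as deposited it differed by -0.07 and its second probe set by -0.15. Mrps35, mitochondria-specific and the one small subunit gene called lower, went from levels between 7.46 and 8.16 to levels between 7.21 and 7.44, a fall of 0.46 (SE 0.15, limma adjusted p = 0.0415). Chow arrays 1 and 2 held its highest levels, and without them it was not called (-0.26).

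Counted over all members after quantile normalization, the groups did not overlap in 18 of 76, 10 with the high-fat arrays above and 8 below, where 22.5% of all genes were apart (11.5% above and 11.0% below). As deposited 17 were apart, all above, where 12.2% of all genes were apart above and 5.51% below. Among the 8 below were Mrpl44, which encodes a protein with a ribonuclease III fold, and Mrpl48, named after their values were seen. They differed by -0.44 (adjusted p = 0.0538) and -0.28 (adjusted p = 0.104) without a call. Mrps9 missed the threshold most narrowly, with a difference of -0.41 (adjusted p = 0.0501).

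The 55 genes not called ran from -0.49 to 0.48. With 5 arrays in each group, a difference that was not called is not shown to be absent. Mrps18b, Mrpl28 and Mrps2 differed least, by 0.0067, 0.0099 and 0.0099 with SEs between 0.11 and 0.12. For Mrps2 this held for the probe set used, while a dim second probe set was called higher (1.06, limma adjusted p = 0.0261). Averaged over both probe sets Mrps2 was called higher. Mrpl37 differed by -0.49 with an SE of 0.33 (adjusted p = 0.308). Its chow array 2 stood at 9.32, while the other 4 chow arrays ran from 7.39 to 8.09 and the high-fat arrays from 7.22 to 7.74. Mrpl12, which forms the stalk of the large subunit and binds the mitochondrial RNA polymerase, differed by 0.24 (adjusted p = 0.124), and was called as deposited (0.56, adjusted p = 0.0291). Mrpl45, which anchors the ribosome to the inner membrane, differed by 0.29 (adjusted p = 0.175) and as deposited rose by 0.51 (adjusted p = 0.0280). Levels of different probe sets do not compare, and the members' means over the 10 arrays spanned the probe sets of Mrps14, Mrps6 and Mrpl51 at the bright end and those of Mrps27, Mrps5 and Mrpl21 at the dim end, of which Mrps14 and Mrpl51 were called.

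The 76 values come from the brightest of 156 probe sets, and 42 genes had more than 1. Of the 80 probe sets not used 51 changed with the sign of the one used, 10 were called higher and 0 lower when all probe sets were fitted. Mrpl15 was the one member in which a probe set was called against the sign of the one used: that one differed by -0.086, and dimmer probe sets rose by 0.997 (adjusted p = 0.0189) and 1.54 (adjusted p = 0.0371). In Mrpl35 (0.84), Mrpl50 (0.57), Mrps23 (0.56) and Mrps2 (1.06) an unused probe set was called higher while the used one was not called. Those of Mrpl50 and Mrps23 were not dim, with mean levels of 7.365 and 7.15 against 7.795 and 7.63 for the used ones. The share called over all named probe sets is not given here, so these counts stand without a background.

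The chow arrays were less alike than the high-fat arrays across these genes, and chow arrays 1 and 2 often lay together above the others. The SD over arrays was larger on chow in 67 of 76 members (13968 of all 18193 genes), with a median SD of 0.25 across chow arrays and 0.106 across high-fat arrays. Over the 76 genes the correlation between arrays, a description of pairs that share the same probe sets, had a median of 0.927 within chow, 0.984 within the high-fat group and 0.912 between groups. Chow arrays 1 and 2 both lay above chow arrays 3 to 5 in 44 of 76 members (57.9%), where 26.1% of all genes did so, and both lay below in 5 members (6.58%), where 22.1% of all genes did so. The mean level of the 76 genes was 8.76, 8.78, 8.42, 8.51 and 8.50 on chow arrays 1 to 5 and 8.72, 8.69, 8.63, 8.64 and 8.64 on high-fat arrays 1 to 5. The 5 high-fat arrays lay between the first 2 and the last 3 chow arrays, and the group means were 8.59 ± 0.16 and 8.66 ± 0.040 (SD, n = 5 each). As deposited the means per array were 8.58, 8.69, 8.25, 8.62 and 8.14 on chow and 8.87, 8.78, 9.04, 8.51 and 8.80 on the high-fat diet, and the order of the chow arrays was different.

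**Figure D3:**
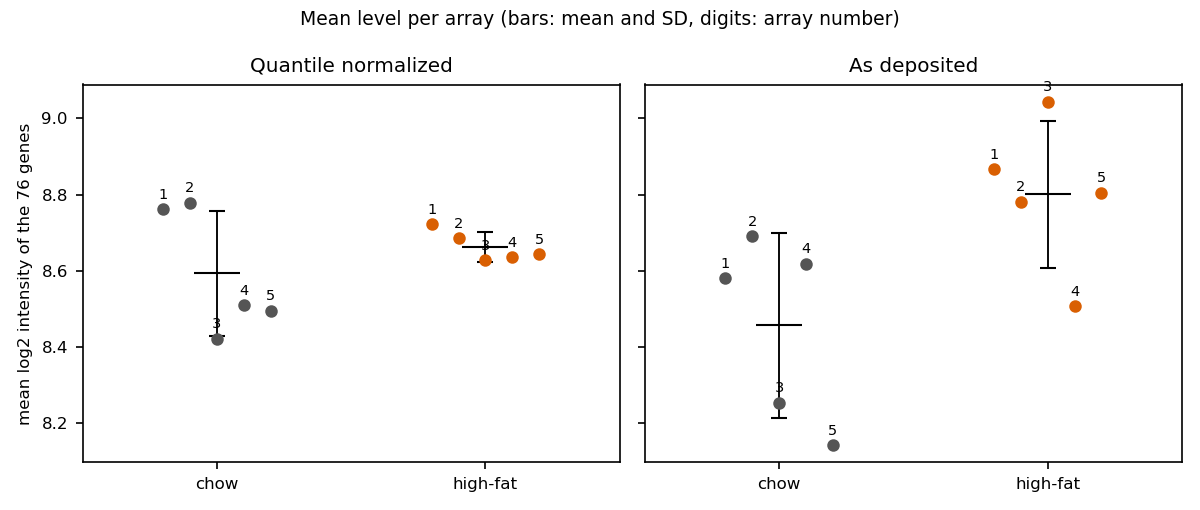
Mean log2 intensity of the 76 genes on each array (y axis), by diet, after quantile normalization (left) and as deposited (right). Points are arrays with their number and bars are the mean and SD of 5 arrays. After normalization the high-fat arrays, at 8.63 to 8.72, lie between chow arrays 1 and 2 and chow arrays 3 to 5.

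Mrps34, a mitochondria-specific member of the small subunit, had the second widest spread on chow after Mrpl37. It was at 10.23, 10.57, 9.26, 9.33 and 9.28 on chow and at 9.79, 9.58, 9.54, 9.74 and 9.58 on the high-fat diet. Its high-fat arrays all lay below chow 1 and 2 and above chow 3 to 5, the change was -0.086 (SE 0.25, adjusted p = 0.838), and without chow arrays 1 and 2 it was 0.36 (adjusted p = 0.0062). Mrpl57, at 10.08, 10.17, 9.26, 9.26 and 9.21 on chow and between 9.33 and 9.61 on the high-fat diet, showed the same order of arrays. Mrps30 went the other way, with 7.38 and 7.58 on chow arrays 1 and 2 and 8.08 to 8.47 on chow arrays 3 to 5.

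Without chow arrays 1 and 2, 29 of 76 members were called higher and 9 lower after quantile normalization, where 18.5% of all genes were higher and 19.8% lower, and the members' median change was 0.15. All 15 genes called higher in the full set were among the 29, and 5 of the 6 lower ones were among the 9. As deposited, 33 were higher and 0 lower without these arrays, where 18.3% of all genes were higher and 10.6% lower. Of genes within the members' level range 26.0% were higher and 29.1% lower without these arrays after quantile normalization, and 28.7% and 10.8% as deposited.

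Markers of epithelium, adipocytes and endothelium set chow arrays 1 and 2 apart from chow arrays 3 to 5, while epididymis and testis markers did not. Markers of epithelium, of epididymis and testis and of macrophages also differed with the diet. The mean log2 level of 7 epithelial markers was 10.42, 10.32, 8.44, 7.80 and 6.96 on chow arrays 1 to 5 and 4.09 to 4.77 on the high-fat diet, and 7 of 7 were called lower. For 14 epididymis and testis markers it was 7.78, 11.34, 9.65, 7.50 and 6.95 on chow and 3.82 to 5.07 on the high-fat diet, with 7 of 14 lower. The 8 adipocyte markers averaged 11.23 and 10.01 on chow arrays 1 and 2 and 11.79, 11.95 and 11.99 on chow arrays 3 to 5. The 8 endothelial markers averaged 7.92 and 7.16, then 9.78, 9.45 and 9.48. The high-fat arrays were higher in 10 of 10 macrophage markers (means of 7.24 to 8.17 on chow and 10.57 to 11.27 on the high-fat diet), in 7 of 7 proliferation genes (4.07 to 4.86 and 6.58 to 7.37) and in 4 of 7 T and B cell markers (3.397 to 4.097 and 4.59 to 5.33). Cldn7, Defb2 and Tnp2, of the epithelial and epididymal lists, reached the floor of the scale on at least 1 high-fat array. The actin control probe sets, whose 5′ signal over 3′ signal measures RNA integrity, gave ratios of 0.272 to 0.456 on chow, highest on chow array 1, and 0.557 to 0.643 on the high-fat diet. The GAPDH controls gave 0.563 to 0.900 on chow, highest on chow array 2, and 1.02 to 1.08 on the high-fat diet. In both controls the diets did not overlap, so these ratios and the diet cannot be told apart. When the epididymis and testis marker mean entered the fit as a covariate, 1 member was called higher, Mrpl27 (1.06, SE 0.22, limma adjusted p = 0.0302), and 0 lower, where 3.23% and 1.54% of all genes were called higher and lower. The 15 genes called higher without the covariate all kept a positive change, between 0.24 and 1.03, and for 10 of them it was at least as large as without it. Their median SE went from 0.147 to 0.295. The marker mean lay above 6.9 on every chow array and at 5.07 or below on every high-fat array. Covariate and diet are therefore confounded, and this fit cannot tell them apart. Mrps22 differed by 0.92 (SE 0.26, adjusted p = 0.0709) and Mrpl40 by 0.24 (SE 0.22, adjusted p = 0.577). Of the 6 genes called lower 5 kept a negative change, and the median over all members was 0.19. What part each of these has in the members' values was not tested.

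**Figure D4:**
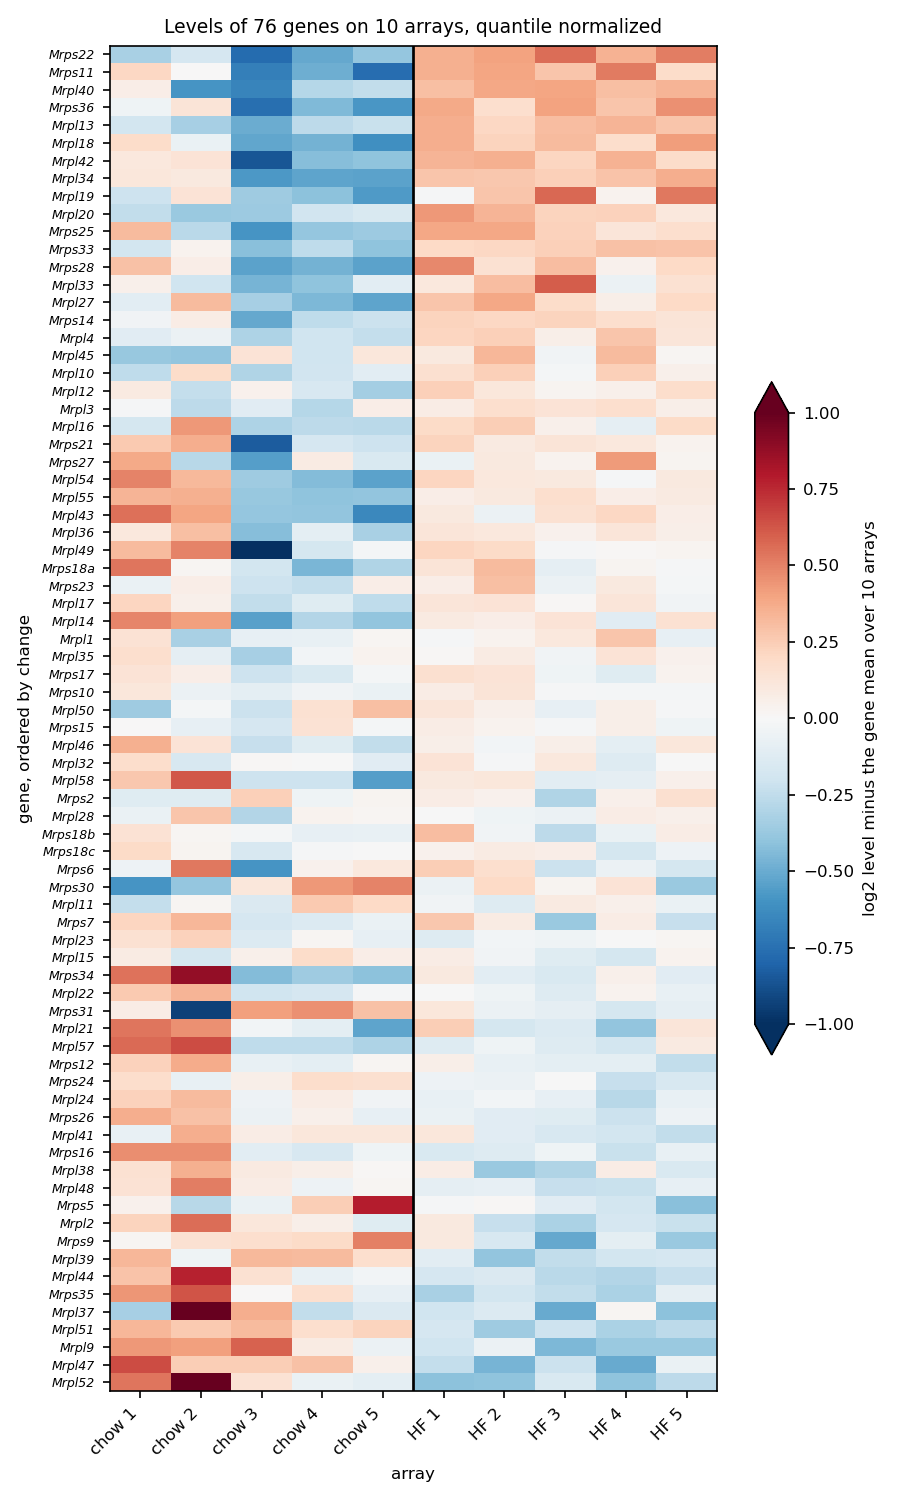
Log2 level of each of the 76 genes (y axis, ordered from the largest rise to the largest fall) on the 10 arrays (x axis, HF for high-fat), as the difference from the gene's mean over all arrays after quantile normalization. Red is above that mean and blue below, with the scale ending at 1 in each direction. The high-fat columns are pale and alike, and chow columns 1 and 2 are redder than chow columns 3 to 5, as 44 of 76 genes are higher in both.

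Genes that build or serve these ribosomes showed no common direction. Beside the counts below, 12.9% of all genes were higher and 13.1% lower after quantile normalization, and 15.1% and 8.20% as deposited. The lists are small, and none was tested against these shares. Of the listed subunits whose symbols do not start with Mrpl or Mrps 4 were named on the array and 0 were called by limma after quantile normalization (0 at an unadjusted p under 0.05), with a median change of 0.16. Dap3, a subunit that binds GTP, differed by 0.29 (adjusted p = 0.155) and was called as deposited (0.60, adjusted p = 0.0344), and Ptcd3 differed by 0.16. Of 24 assembly factors 1 was higher and 5 lower, with a median of -0.084, and as deposited 1 was higher and 1 lower. Ngrn, needed for the stability of the large ribosomal RNA, was at 8.19, 8.36, 8.31, 8.14 and 8.21 on chow and at 7.20, 7.47, 7.22, 7.19 and 7.32 on the high-fat diet. Its groups were far apart, and it fell by 0.96 (SE 0.10, limma adjusted p = 8.9e-05) and by 0.73 as deposited (limma adjusted p = 0.0064). Dhx30, an RNA helicase of the mitochondrial RNA granule, fell by 0.70 (limma adjusted p = 0.0016) and Mettl17, a factor of small subunit assembly, by 0.67 (limma adjusted p = 0.0132), neither of them called as deposited.

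Of 10 translation factors 2 were higher and 0 lower, with a median of 0.12, and as deposited the counts were also 2 and 0. Gfm1, an elongation factor, rose by 0.52 (SE 0.13, limma adjusted p = 0.0147), and Tsfm, the nucleotide exchange factor of the elongation factor Tufm, rose by 0.42 (SE 0.12, limma adjusted p = 0.0259). Of 19 mitochondrial tRNA synthetases and partners 0 were called by limma after quantile normalization (4 at an unadjusted p under 0.05), with a median of 0.21, and 2 were higher as deposited. Gatc differed by 0.38 (adjusted p = 0.0550) and Ears2 by -0.43 (adjusted p = 0.0766). Of 14 genes for the upkeep and transcription of mitochondrial DNA 0 were higher and 4 lower, with a median of -0.35, and as deposited 1 was lower, Twnk. Twnk was at 7.72, 7.61, 7.50, 7.43 and 7.41 on chow and at 6.74, 6.66, 6.59, 6.67 and 6.63 on the high-fat diet. Polg2, the accessory subunit of the mitochondrial DNA polymerase, fell by 0.58 (limma adjusted p = 0.0087) and Tfb2m, a transcription initiation factor, by 0.56 (limma adjusted p = 0.0050).

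Among 9 regulators of mitochondrial gene expression 0 were higher and 1 lower after quantile normalization, and 0 were called by limma as deposited (3 at an unadjusted p under 0.05 in each case). Yy1, which binds the motif AAGATGGC, fell by 0.40 (limma adjusted p = 0.0133) after normalization and differed by -0.06 as deposited. Ppargc1a, the coactivator PGC-1 alpha, differed by -0.57 (adjusted p = 0.126).

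For comparison, 1 of 49 cytosolic ribosomal protein genes was higher and 3 were lower after quantile normalization, with a median of -0.035, and 2 and 1 as deposited, with a median of 0.095. Of 81 subunits of the respiratory chain and the ATP synthase 8 were higher and 12 lower, with a median of -0.027, and 15 and 1 as deposited, with a median of 0.24. The mitochondrial ribosomal proteins had 15 and 6, and 22 and 0, of 76. Of all genes 12.9% were higher and 13.1% lower after quantile normalization, and 15.1% and 8.20% as deposited. Differences between these lists, or from these shares, were not tested.

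**Figure D5:**
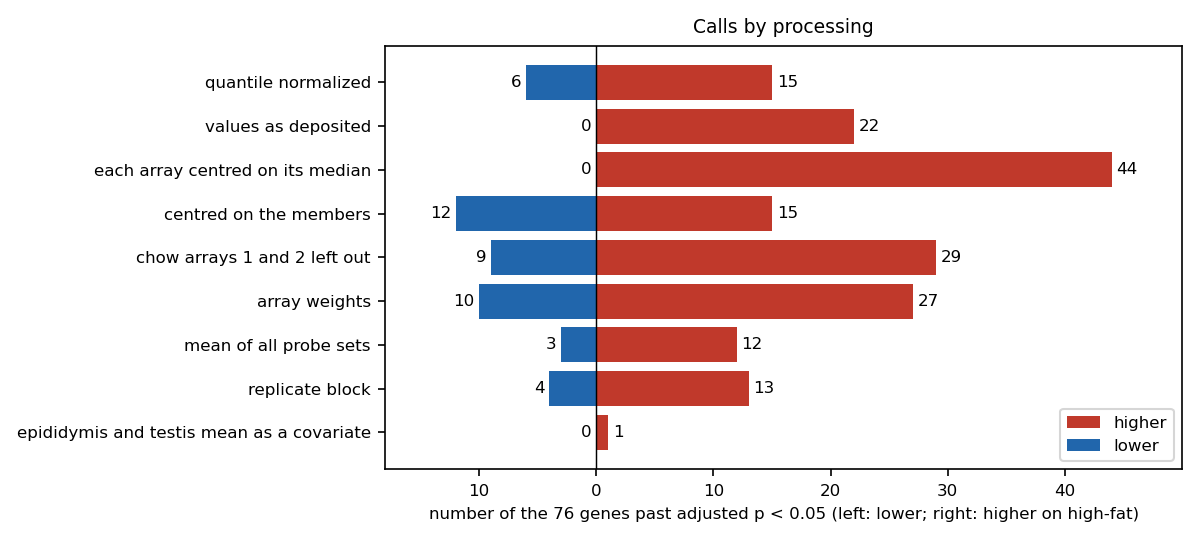
Number of the 76 genes past an adjusted p of 0.05 (x axis, lower to the left and higher to the right) under each processing (y axis). The number higher runs from 1 with the epididymis and testis covariate to 44 with arrays centred on their medians, and the number lower from 0 to 12.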

How the data were processed

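Total RNA of 10 mice was measured on Affymetrix mouse arrays after cDNA synthesis and in vitro transcription with biotin, per the labels' protocols. Each array has a single linear intensity per probe set in the deposited table, which lists 45101 probe sets. How the authors summarised and scaled these intensities is not stated in the labels or the file. After log2 transformation the array medians differ by 0.613. The number of arrays sets the precision.

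The sample titles gave the group and replicate number. Intensities were raised to the 5th percentile of all values (0.658), taken to log2 and quantile normalized. Names came from the platform annotation: 34945 probe sets had exactly 1 symbol, 932 had several, 9211 were not listed there, and 64 were controls. These counts do not add up to the 45101 probe sets. The controls entered the floor and the normalization but no test. The probe set with the highest mean was used for each of 18193 genes, and all 76 members matched a RefSeq symbol. Tests used limma 3.58.1 (lmFit, eBayes with a trend, R 4.3.3), and p-values were Benjamini-Hochberg adjusted over all genes with a threshold of 0.05. For members with printed values a 2-sided exact permutation test took all 252 arrangements. Probe sets not used for their gene were judged in the same fit run over all named probe sets. The procedure was tested on simulated data. Promoter windows were taken from RefSeq tables of GRCm38.p6.

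The members and lists were chosen with earlier results of these data known. The named members are up to 6 rises and 6 falls in each subunit, called genes whose groups do not overlap, called genes that differ as deposited, opposed probe sets, the brightest, the dimmest, those nearest 0 and those with the widest or narrowest spread. Up to 3 genes of each pathway list were named by size of change, filled to 2 by the smallest p. Others were named after their values were seen, such as Mrps9, Mrpl12, Mrpl45, Mrpl57 and Mrps30. The replicate numbers do not pair the arrays, since the correlations of same-numbered deviations ran from -0.020 to 0.0056.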

Additional observations from a re-analysis of the deposited data

Results flagged for a closer look

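Mrps2, a small subunit gene with a bacterial counterpart, had 1 array apart from the others of its group: high-fat array 3 stood at 7.81, and the nearest other high-fat array at 8.15. The gap was 0.743 of the range of the group, above Dixon's 95% critical value of 0.71 for 5 samples. It was 1 of 68 groups of named members tested, and 4 of 152 over all members, and chance alone marks about 1 in 20 groups. The gene was not called, with a change of 0.0099, while its dim second probe set was called higher (1.06, limma adjusted p = 0.0261).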

How the results depend on the processing

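The number of members called higher (15 after quantile normalization) was 44 with each array centred on its median, 27 with array weights, 1 with the epididymis and testis mean as a covariate and 29 without chow arrays 1 and 2. Of genes within the members' level range 38.6%, 24.1%, 4.37% and 26.0% were higher under these 4 alternatives (17.2% after quantile normalization). Leaving out 1 array at a time gave 8 to 18, with 8 without chow array 3 and 9 without high-fat array 2 or 5. The number lower (6) was 0 as deposited, 0 with each array centred on its median, 10 with array weights, 3 with the mean of all probe sets, 2 without probe sets that can match several transcripts (62 members left), 0 with the covariate and 12 centred on the members, and leaving out 1 array at a time gave 4 to 9. Of genes within the members' level range 17.5% were lower after quantile normalization. From the values as deposited to the centring on the members, in the same order, that share was 6.29%, 6.06%, 27.0%, 10.3%, 14.7%, 2.78% and 22.8%. The last of these shares is largely set by the centring. The median change (0.051) was 0.33 as deposited and 0.46 after median centring of the arrays, and 0.012 to 0.099 when 1 array was left out. The median over all genes was -0.037, 0.078 and 0.21 under these 3 scalings, and 75.4% of all calls were higher with median centring. With the replicate number as a block 13 were higher and 4 lower, but the numbers do not pair the arrays. The other alternatives gave 10 to 22 higher and 4 to 9 lower.

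Among values called in either fit, the sign changed for Mrpl15 (0.35) and Mrpl39 (0.064) with median centring, for Mrpl51 (0.14) without probe sets that can match several transcripts, for Mrpl52 (0.16) with the covariate, for Mrps11 (-0.26) with the mean of all probe sets and for Mrps34 (0.36) without chow arrays 1 and 2. The causes were not tested. Of 844 values of the named members under an alternative, 656 kept their direction and their side of the threshold, 101 lost and 24 gained a call, those 6 changed sign, and another 57 changed sign without a call in either fit. A sign changed in 16 of the 34 named members. With the mean of all probe sets Mrpl13, Mrpl33, Mrpl34, Mrpl42 and Mrps11 lost their higher call, and Mrpl9, Mrpl47, Mrpl51 and Mrpl52 their lower call. Mrps22, Mrpl40, Mrps36, Mrpl18, Mrpl20, Mrps33 and Mrpl4 were called higher under every alternative run for them but the covariate. Arrays number 5 in each group, and no detection calls were used, so dim second probe sets carry little weight.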
